A study of Mus musculus with 17 samples.

Results

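Prostaglandin and leukotriene synthesis was described through 9 genes of the eicosanoid pathway, Pla2g4a, Ptgs1, Ptgs2, Ptges, Hpgds, Alox5, Alox5ap, Ltc4s and Ptger4, chosen by symbol from the 22859 genes of the count table. All 9 were among the 15272 genes that passed the filter on low counts, although Ptges did so with few counts. RNA sequencing was performed on macrophages sorted from collagenase-digested mouse synovium, the connective tissue that lines joints. Every library was labelled Fcgr2b-KO, a knockout of the inhibitory Fc receptor for IgG, in the IC group and in the controls alike, so no wild-type library is compared. The IC group had received immune complexes (IC) of ovalbumin and rabbit anti-ovalbumin antibody into a vein 8 h before collection, while the controls were labelled only as healthy or control, with no injection named. The mice of the study were of both sexes and 8 to 20 weeks old. The sorted subsets, LYVE1+CX3CR1+, MHCII+CD11c- and also MHCII+CD11c+ macrophages, gave 3 control libraries each and 3, 3 and 2 IC libraries, which makes 17 in all. Whether a library pooled mice was not stated for these samples, so the p-values measure the spread between libraries.

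Eicosanoids are lipid mediators made from arachidonic acid, which cytosolic phospholipase A2 cuts out of membrane lipids. Cyclooxygenases turn it into prostaglandin H2, from which terminal synthases make prostaglandin E2, prostaglandin D2 and thromboxane, whereas 5-lipoxygenase and its activating protein turn it into leukotriene A4, the source of leukotriene B4 and of the cysteinyl leukotrienes. In the joint, prostaglandin E2 is known for sensitising pain fibres, and cyclooxygenases are the targets of the non-steroidal anti-inflammatory drugs.

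The libraries held 2301913 to 7248939 counts assigned to genes. Levels are given as CPM, the counts scaled to the TMM effective size of each library, and 3 counts, taken as the floor, stood for 0.419 to 1.24 CPM. Mean Lyve1 was 1955 CPM in LYVE1+CX3CR1+ controls, 852 CPM in MHCII+CD11c- controls and 146 CPM in MHCII+CD11c+ controls, while mean Itgax (CD11c) was 1.43, 12.9 and 348 CPM in the same order. After IC, mean Lyve1 was 3619 CPM in LYVE1+CX3CR1+ macrophages (3272 to 4116 CPM). In MHCII+CD11c- macrophages after IC it was 2083 CPM (1455 to 2458 CPM), which overlapped LYVE1+CX3CR1+ controls (1727 to 2338 CPM). All 8 macrophage markers listed were detected in every group. They summed to 7232 to 11023 CPM in the LYVE1+CX3CR1+ and MHCII+CD11c- libraries and 1795 to 5022 CPM in the MHCII+CD11c+ libraries. The summed dendritic cell markers reached 218 to 576 CPM in MHCII+CD11c+, 65.2 to 225 CPM in MHCII+CD11c- and 6.61 to 23.3 CPM in LYVE1+CX3CR1+ libraries. In MHCII+CD11c+ controls their mean sum was 431 CPM, of which Cd209a was 313 CPM. At an equal depth of 2301913 counts, the LYVE1+CX3CR1+ IC libraries showed 11547 to 13857 genes against 16390 to 17389 in their controls. MHCII+CD11c+ control replicate 2 stood apart from its group in several genes of the pathway, and differences between control subsets are also given without it where that changes a call or moves a fold by over 1.5 times. Fcgr2b itself had 167 to 1168 counts in every library, and counts per gene do not show from which exons they came.

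Taken per kilobase of exon, which allows levels to be set between genes, the leukotriene genes and Hpgds led in LYVE1+CX3CR1+ macrophages. In these bulk counts, fewer cells expressing a gene and less RNA per cell cannot be told apart. In LYVE1+CX3CR1+ controls, Alox5ap stood at 113 ± 8.99 CPM per kilobase (SD, n = 3), Alox5 at 109 ± 9.93, Ltc4s at 43.4 ± 5.58 and Hpgds at 34 ± 4.9, all above Ptger4 at 8.47 ± 1.31 and Pla2g4a at 6.49 ± 0.33. The cyclooxygenase genes were lower still, at 3.13 ± 1.64 CPM per kilobase for Ptgs2 and 1.99 ± 0.879 for Ptgs1. In MHCII+CD11c+ controls the order was different, with Alox5ap at 113 ± 4.3 CPM per kilobase followed by Ptgs2 at 28.8 ± 10.5 and Alox5 at 25 ± 16.3, and with Ltc4s at 3.15 ± 2.37 and Hpgds at 2.85 ± 0.551. MHCII+CD11c- controls had Alox5ap at 96.3 ± 14.2, Alox5 at 68.1 ± 2.58, Ltc4s at 23.5 ± 3.1, Ptgs2 at 13.1 ± 8.06 and Hpgds at 9.77 ± 1.33 CPM per kilobase.

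**Figure D1:**
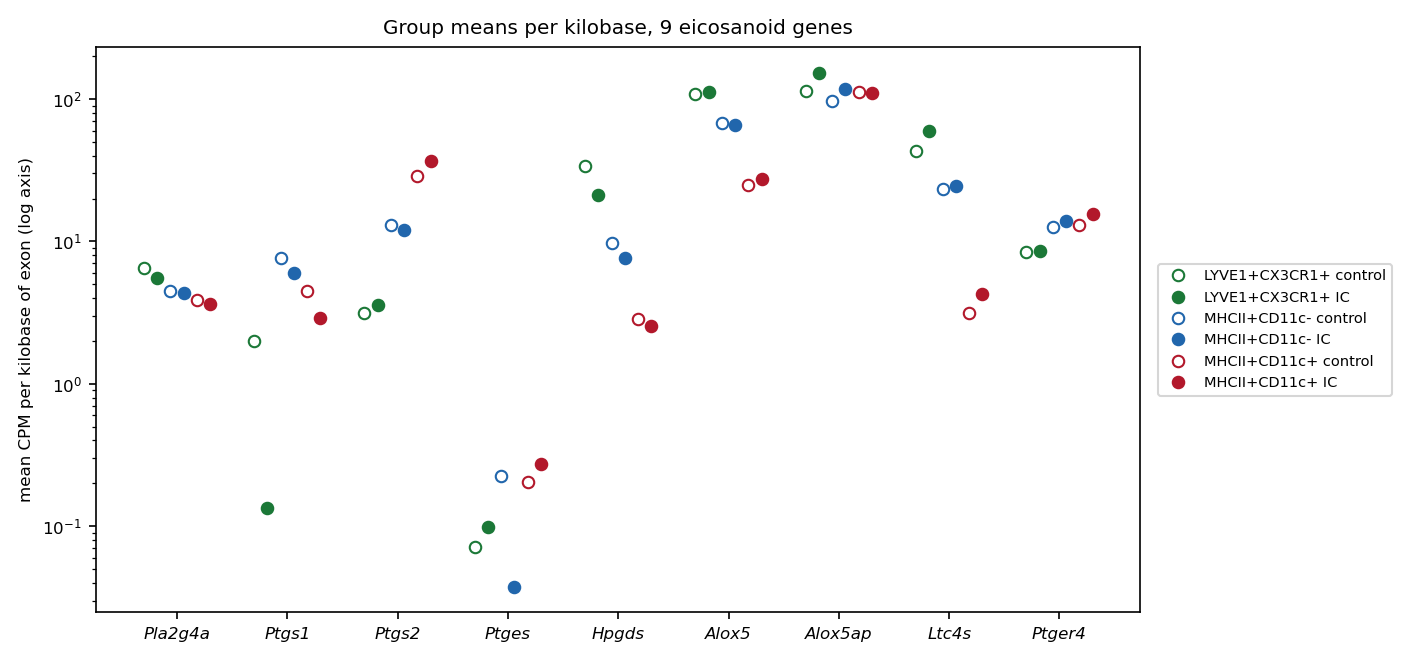
Group mean level of the 9 genes in CPM per kilobase of exon, on a log axis, in the 6 groups. Alox5ap stays between 96.3 and 153 in every group, whereas Alox5, Ltc4s and Hpgds step down and Ptgs2 steps up from LYVE1+CX3CR1+ to MHCII+CD11c+ macrophages.

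The gene of the release step was called in no comparison. Pla2g4a (chr1:149829618-149961290, minus strand, GRCm38), which encodes cytosolic phospholipase A2 alpha, was at 41.1, 43.8 and 39.6 CPM in LYVE1+CX3CR1+ controls and at 31.9, 36.8 and 37.3 CPM after IC. It was at 28.2, 29.2 and 28.1 CPM in MHCII+CD11c- controls and at 25.5, 35.0 and 22.8 CPM after IC. In MHCII+CD11c+ macrophages the levels were 12.3, 38.5 and 23.1 CPM in controls and 26.4 and 19.97 CPM after IC. The LYVE1+CX3CR1+ control libraries were above all others, yet no difference passed the test. The largest difference between control subsets, LYVE1+CX3CR1+ over MHCII+CD11c+, was 0.75 ± 0.33 on the log2 scale (SE, adjusted p = 0.145), and it became 1.24 (adjusted p = 0.0153) without MHCII+CD11c+ control replicate 2, the library at 38.5 CPM.

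Of the cyclooxygenase genes, Ptgs2 was lower in LYVE1+CX3CR1+ macrophages than in both MHCII+ subsets with and without IC, and Ptgs1 was lower than in both after IC. Ptgs1 was the 1 gene of the 9 called after IC by edgeR, in LYVE1+CX3CR1+ macrophages. Ptgs1 (chr2:36230426-36252272, plus strand), the cyclooxygenase that most tissues make constitutively, was at 9.76, 3.78 and 9.63 CPM in LYVE1+CX3CR1+ controls, or 62, 14 and 69 counts. After IC it was at 0, 1.57 and 0 CPM, or 0, 5 and 0 counts, so the groups did not overlap. It fell by 3.77 ± 0.76 on the log2 scale, a fitted 13.6-fold (adjusted p = 0.0183), in a comparison in which 0.963% of the 15272 genes were called, 23 higher and 124 lower in the IC group (29 and 81 with RLE library sizes, but 22 and 14 with voom and 37 and 26 in a fit on the LYVE1+CX3CR1+ groups alone). The group at the lower level rests on 5 counts in all, which limits the size of the fold.

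Ptgs1 in MHCII+CD11c- macrophages was at 38.6, 24.7 and 26.1 CPM in controls and at 19.1, 18.1 and 33.3 CPM after IC, and these overlapped (log2 difference -0.35 ± 0.53, adjusted p = 0.934). MHCII+CD11c+ macrophages had 13.2, 16.3 and 23.1 CPM in controls and 7.64 and 14.8 CPM after IC, again with overlap (-0.64 ± 0.61, adjusted p = 1). The log2 change in LYVE1+CX3CR1+ macrophages minus that in MHCII+CD11c- macrophages was -3.42 ± 0.94 (adjusted p = 0.329), and minus that in MHCII+CD11c+ macrophages it was -3.13 ± 0.98 (adjusted p = 0.316), so a difference in response between subsets was not established for Ptgs1.

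The drop of Ptgs1 was called in 8 of 14 alternative analyses. The call was lost with voom (adjusted p = 0.162), in a fit on the LYVE1+CX3CR1+ groups alone (0.316), without control replicate 1 (0.0718) or 3 (0.0764) and without IC replicate 1 (0.0613) or 3 (0.0607). The MHCII gene H2-Aa, which marks the other subsets, went from a mean of 10.3 CPM in LYVE1+CX3CR1+ controls to 0.488 CPM after IC, H2-Eb1 from 5.30 to 0 CPM and H2-Ab1 from 26.0 to 15.04 CPM. In controls these stood at 0.462%, 0.246% and 0.632% of their MHCII+CD11c- means, and Ptgs1 at 25.9% of its own. The part of RNA from the other subsets in the drop of Ptgs1 was not tested. The number of genes detected at equal depth also differed between the same libraries, as given above, and its part in the drop was not tested.

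Between subsets, Ptgs1 in LYVE1+CX3CR1+ controls was lower than in MHCII+CD11c- controls with no overlap, but the difference of -1.93 ± 0.55 (log2) did not pass the test (adjusted p = 0.0868), although it did in 4 of 14 alternatives. After IC the difference from MHCII+CD11c- macrophages was -5.35 ± 0.76 (40.7-fold lower, adjusted p = 0.000121), called in each of 14 alternatives. The difference from MHCII+CD11c+ macrophages was -4.28 ± 0.79 (19.5-fold lower, adjusted p = 0.000654), lost in a fit on the groups compared alone (adjusted p = 0.139). In the order of the 6 group means, the gap below LYVE1+CX3CR1+ controls was the 1 place where neighbours did not overlap.

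**Figure D2:**
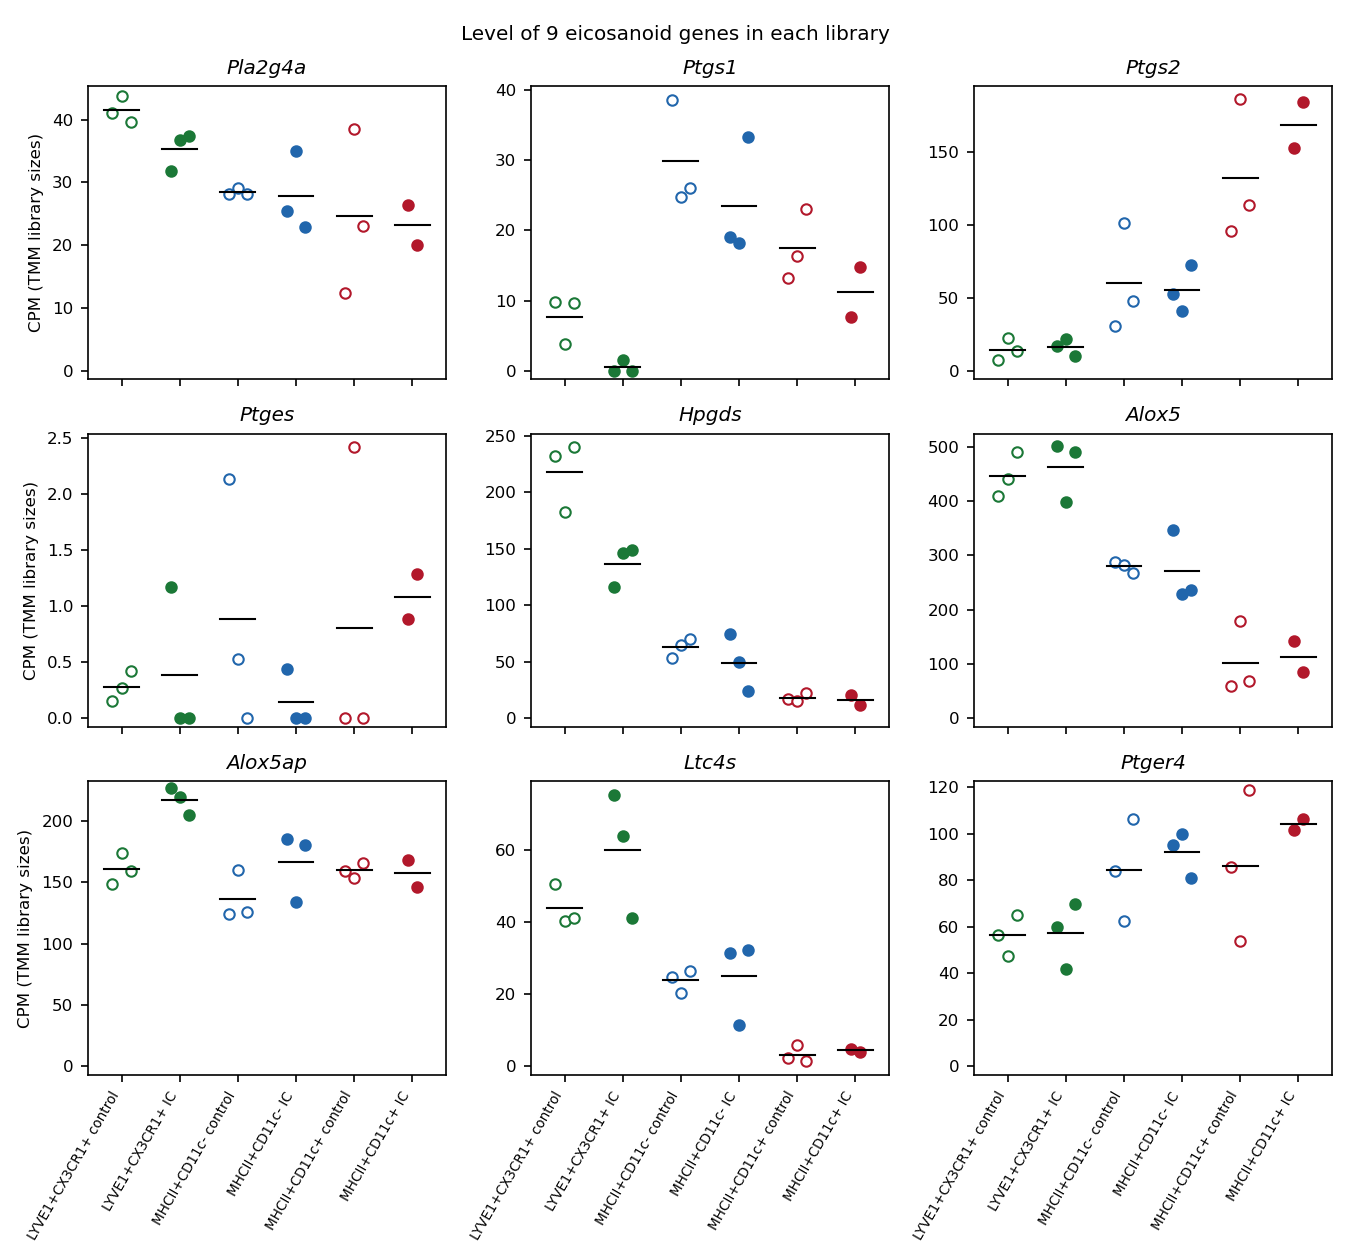
CPM of each of the 9 genes in each library, with open points for controls, filled points for IC and a black line at the group mean, in green for LYVE1+CX3CR1+, blue for MHCII+CD11c- and red for MHCII+CD11c+ macrophages. Hpgds and Ltc4s descend from green to red, Ptgs2 ascends, and Ptgs1 lies at 0 to 1.57 CPM in the LYVE1+CX3CR1+ IC libraries.

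Ptgs2 (chr1:150100031-150108227, plus strand), the inducible cyclooxygenase that inflammatory stimuli switch on in macrophages, was ordered across subsets in the opposite way to Alox5, and the promoters of both genes are shown for this contrast. They are the 250 bases before each RefSeq start on GRCm38.p6, with the only matches to 7 motifs searched on both strands in capitals, GGGCGG (GC box) and TTGCGCAA (C/EBP palindrome).
Ptgs2 promoter, chr1:150099781-150100030, plus strand: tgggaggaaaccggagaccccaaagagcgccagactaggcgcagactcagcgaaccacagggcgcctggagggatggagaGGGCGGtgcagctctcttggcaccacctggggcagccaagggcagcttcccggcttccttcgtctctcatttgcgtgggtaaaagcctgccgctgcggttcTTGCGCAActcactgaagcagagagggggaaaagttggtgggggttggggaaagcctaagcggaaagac
Alox5 promoter, chr6:116461179-116461428, minus strand: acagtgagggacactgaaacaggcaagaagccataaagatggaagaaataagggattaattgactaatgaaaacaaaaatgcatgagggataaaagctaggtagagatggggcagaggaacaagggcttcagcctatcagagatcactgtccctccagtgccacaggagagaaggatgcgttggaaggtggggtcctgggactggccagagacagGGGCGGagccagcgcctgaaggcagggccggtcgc
The GC box lay 170 bases before the start of Ptgs2 and 35 bases before that of Alox5, and 32.7% of 32851 promoter windows of the same length held one. The palindrome lay 69 bases before the Ptgs2 start and occurred in 0.164% of windows. The motifs were chosen after the sequences were seen, so these shares are descriptions and no test of enrichment. The letters ACGTCA (CRE site core), GGAAGT (ETS core), TGANTCA (AP-1 site), TGCTGA (MAF site core) and CACGTG (E-box) were in neither window. Bases after the starts were not searched, so these letters may still lie close to either start.

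Ptgs2 was at 7.24, 22.2 and 13.5 CPM in LYVE1+CX3CR1+ controls and at 30.9, 102 and 47.8 CPM in MHCII+CD11c- controls. In MHCII+CD11c+ controls it was at 95.9, 186 and 114 CPM. The LYVE1+CX3CR1+ libraries were below every library of the MHCII+ subsets, whereas the MHCII+ subsets overlapped each other. Against MHCII+CD11c- controls Ptgs2 was 4.29-fold lower in LYVE1+CX3CR1+ controls (log2 difference -2.10 ± 0.46, adjusted p = 0.0254), in a comparison in which 1.56% of genes were called. Against MHCII+CD11c+ controls it was 9.39-fold lower (-3.23 ± 0.47, adjusted p = 0.000122), where 15.2% of genes were called. MHCII+CD11c+ over MHCII+CD11c- controls gave 1.13 ± 0.43 (adjusted p = 0.128), called in 4 of 14 alternatives. These were DESeq2 (adjusted p = 0.0458), voom (0.0208), a replicate block (0.00338) and the fit without MHCII+CD11c- control replicate 2 (0.00767). Without MHCII+CD11c+ control replicate 2, at 186 CPM, the differences of MHCII+CD11c+ controls from the LYVE1+CX3CR1+ and MHCII+CD11c- controls were -2.90 (LYVE1+CX3CR1+ lower, adjusted p = 0.000202) and 0.80 (adjusted p = 0.310).

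After IC the same order of Ptgs2 was seen, with 17, 22 and 9.96 CPM in LYVE1+CX3CR1+, 52.3, 40.8 and 72.4 CPM in MHCII+CD11c- and 153 and 184 CPM in MHCII+CD11c+ macrophages. None of the 3 groups overlapped. LYVE1+CX3CR1+ was 3.34-fold below MHCII+CD11c- (-1.74 ± 0.46, adjusted p = 0.0360), where 5.54% of genes were called, and 10.2-fold below MHCII+CD11c+ macrophages (-3.35 ± 0.50, adjusted p = 0.000280), where 11.9% were called. MHCII+CD11c+ over MHCII+CD11c- after IC gave 1.61 ± 0.47 and did not pass the test (adjusted p = 0.0690), but did in 6 of 13 alternatives. IC left no called change of Ptgs2, with log2 differences from control of 0.23 ± 0.47, -0.13 ± 0.43 and 0.35 ± 0.47 in the LYVE1+CX3CR1+, the MHCII+CD11c- and the MHCII+CD11c+ subset.

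The differences of Ptgs2 from MHCII+CD11c+ macrophages were called in every alternative, while those from MHCII+CD11c- macrophages were called in 10 of 14 in controls and 7 of 14 after IC. The latter were lost in controls with no filter (adjusted p = 0.0736), in a fit on the groups compared alone (0.0842) and without LYVE1+CX3CR1+ replicate 1 (0.108) or 3 (0.147). After IC they were lost with voom (adjusted p = 0.247), with no filter (0.0951) and without LYVE1+CX3CR1+ replicate 1 (0.0851), 2 (0.0505) or 3 (0.147) or MHCII+CD11c- replicate 1 (0.0581) or 3 (0.133). The 9 neutrophil markers listed summed to 82.1 to 464 CPM in MHCII+CD11c+ controls, 14.4 to 254 CPM in MHCII+CD11c- controls and 1.10 to 8.79 CPM in LYVE1+CX3CR1+ controls, the same order as Ptgs2, and their part in it was not tested among these controls. In the MHCII+CD11c+ IC libraries they summed to 0.733 to 2.497 CPM, with 4 of 9 at 0, and Ptgs2 there was 153 and 184 CPM.

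The terminal prostaglandin synthases on the list differed in level. Ptges (chr2:30889471-30929863, minus strand), the inducible microsomal prostaglandin E synthase, was near the limit of detection, with 1, 1 and 3 counts in LYVE1+CX3CR1+ controls and 4, 0 and 0 after IC. MHCII+CD11c- libraries held 10, 3 and 0 counts without IC against 2, 0 and 0 with it, and MHCII+CD11c+ libraries held 0, 13 and 0 counts without IC against 6 and 7 with it. The highest count of 13 was in MHCII+CD11c+ control replicate 2. Groups next to each other in the order of the 6 means all overlapped. After IC, MHCII+CD11c+ libraries, at 6 and 7 counts, did not overlap MHCII+CD11c- libraries, at 2, 0 and 0. No fold is given, since counts of Ptges were few at this depth and no difference passed the test.

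Hpgds (chr6:65117293-65144908, minus strand), the hematopoietic prostaglandin D synthase, differed between all 3 subsets, with and without IC. It was at 232, 182 and 240.3 CPM in LYVE1+CX3CR1+ controls, 53.3, 65.2 and 69.9 CPM in MHCII+CD11c- controls and 17.02, 15.6 and 22.3 CPM in MHCII+CD11c+ controls. None of these groups overlapped. LYVE1+CX3CR1+ was 3.48-fold above MHCII+CD11c- (log2 difference 1.80 ± 0.29, adjusted p = 0.00117) and 12.02-fold above MHCII+CD11c+ controls (3.59 ± 0.32, adjusted p = 3.46e-08). MHCII+CD11c+ was 3.46-fold below MHCII+CD11c- controls (-1.79 ± 0.30, adjusted p = 0.000378), a comparison with 8.66% of genes called.

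After IC, Hpgds was at 116, 146 and 149 CPM in LYVE1+CX3CR1+, 74.5, 49.9 and 23.9 CPM in MHCII+CD11c- and 20.9 and 12.1 CPM in MHCII+CD11c+ macrophages, still without overlap. The log2 differences were 1.46 ± 0.29 for LYVE1+CX3CR1+ over MHCII+CD11c- (adjusted p = 0.00342), 3.04 ± 0.36 over MHCII+CD11c+ (adjusted p = 4.43e-06) and -1.58 ± 0.34 for MHCII+CD11c+ over MHCII+CD11c- (adjusted p = 0.00727), where 4.03% of genes were called. The last of these was lost without MHCII+CD11c+ IC replicate 2 (adjusted p = 0.289), with the remaining library assumed to vary like the other groups, and in a fit on the groups compared alone (0.0734). The others held in every alternative.

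Every LYVE1+CX3CR1+ library after IC was below every control library in Hpgds, yet the difference of -0.67 ± 0.28 did not pass the test (adjusted p = 0.266). In MHCII+CD11c- macrophages the response was -0.34 ± 0.29 (adjusted p = 0.807), with overlap. Hpgds is also a marker of mast cells, of which 9 other markers were listed and 8 were in the table. They summed to 0.787 to 4.59 CPM in LYVE1+CX3CR1+ controls, with 2 of 8 above the floor in any library, 5.48 to 19.0 CPM in MHCII+CD11c- controls and 10.97 to 19.1 CPM in MHCII+CD11c+ controls, and their part in the level of Hpgds was not tested.

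**Figure D3:**
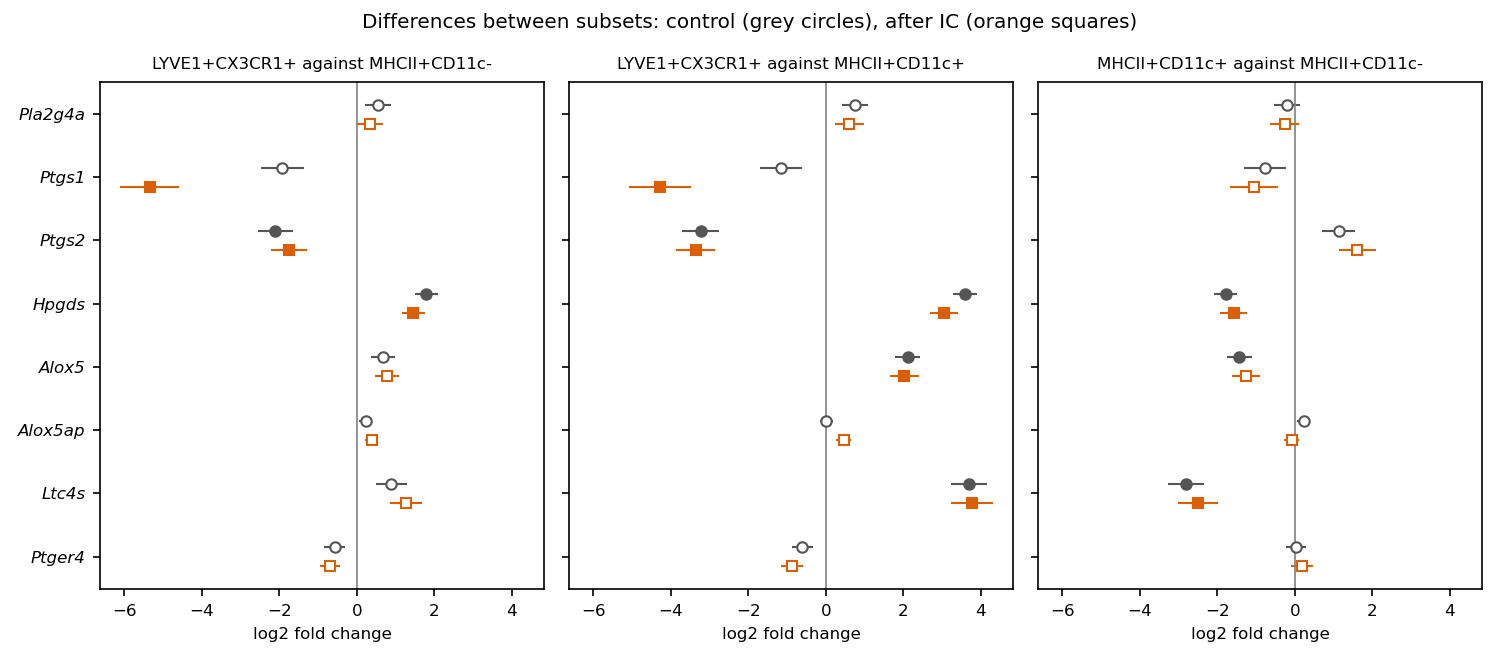
Log2 fold difference ± SE between subsets for 8 of the genes (Ptges left out for its low counts), with grey circles for controls, orange squares for libraries after IC, and filled symbols where the test was passed. Hpgds, Ltc4s and Alox5 lie on the LYVE1+CX3CR1+ side and Ptgs2 on the MHCII+ side in both conditions.

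Among the leukotriene genes, Alox5 and Ltc4s followed the order of Hpgds by group mean. Their step from LYVE1+CX3CR1+ to MHCII+CD11c- macrophages was not called, with or without IC. Alox5ap, which encodes the protein that presents arachidonic acid to 5-lipoxygenase, did not follow that order. Alox5 (chr6:116410077-116461178, minus strand), the gene of 5-lipoxygenase, was at 409.9, 440.0 and 491 CPM in LYVE1+CX3CR1+ controls, 288, 283 and 268 CPM in MHCII+CD11c- controls and 59.3, 179.6 and 69.2 CPM in MHCII+CD11c+ controls. These groups did not overlap. LYVE1+CX3CR1+ was 4.33-fold above MHCII+CD11c+ controls (log2 difference 2.11 ± 0.33, adjusted p = 0.000177), and MHCII+CD11c+ was 2.71-fold below MHCII+CD11c- controls (-1.44 ± 0.32, adjusted p = 0.00781). The step from LYVE1+CX3CR1+ to MHCII+CD11c-, 0.68 ± 0.31, did not pass the test (adjusted p = 0.469).

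The MHCII+CD11c+ control library at 179.6 CPM of Alox5 was replicate 2. Without it the log2 differences were 2.80 (adjusted p = 1.14e-08) for LYVE1+CX3CR1+ over MHCII+CD11c+ and -2.12 (adjusted p = 1.03e-06) for MHCII+CD11c+ over MHCII+CD11c-. The latter call was lost in a fit on the groups compared alone (adjusted p = 0.0518) and with surrogate variables (0.0612). Alox15, the 12/15-lipoxygenase gene, named here after its values were seen, was at 208 CPM in the same library against 0.638 and 0 CPM in the other controls of the subset.

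After IC, Alox5 was at 502, 399 and 489.5 CPM in LYVE1+CX3CR1+, 347, 229 and 237 CPM in MHCII+CD11c- and 142 and 85.2 CPM in MHCII+CD11c+ macrophages. The groups again did not overlap, but LYVE1+CX3CR1+ over MHCII+CD11c- gave 0.77 ± 0.31 and did not pass the test (adjusted p = 0.165, called in 2 of 14 alternatives). LYVE1+CX3CR1+ was 4.08-fold above MHCII+CD11c+ (2.03 ± 0.38, adjusted p = 0.00162). This call was lost without MHCII+CD11c+ IC replicate 2 (adjusted p = 0.0508). MHCII+CD11c+ against MHCII+CD11c- after IC gave -1.26 ± 0.36 (adjusted p = 0.0665), called in 7 of 13 alternatives.

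Ltc4s (chr11:50236461-50238616, minus strand), the synthase of leukotriene C4 and so of the cysteinyl leukotrienes, was at 50.6, 40.3 and 41.3 CPM in LYVE1+CX3CR1+ controls, 24.7, 20.3 and 26.4 CPM in MHCII+CD11c- controls and 2.13, 5.94 and 1.51 CPM in MHCII+CD11c+ controls. These groups did not overlap either. LYVE1+CX3CR1+ was 13.0-fold above MHCII+CD11c+ controls (log2 difference 3.70 ± 0.46, adjusted p = 3.76e-06), and MHCII+CD11c+ controls lay below MHCII+CD11c- controls (-2.81 ± 0.46, adjusted p = 0.000214). Without MHCII+CD11c+ control replicate 2, the library at 5.94 CPM, these log2 differences were 4.54 (adjusted p = 1.02e-06) and -3.65 (adjusted p = 3.73e-05). LYVE1+CX3CR1+ over MHCII+CD11c- controls gave 0.89 ± 0.40 (adjusted p = 0.415).

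After IC, Ltc4s was at 75.5, 63.9 and 41.1 CPM in LYVE1+CX3CR1+, 31.5, 11.3 and 32.2 CPM in MHCII+CD11c- and 4.70 and 4.03 CPM in MHCII+CD11c+ macrophages. On the log2 scale, LYVE1+CX3CR1+ over MHCII+CD11c- gave 1.27 ± 0.40 and did not pass the test (adjusted p = 0.0645), although it did in 6 of 14 alternatives. LYVE1+CX3CR1+ was 13.7-fold above MHCII+CD11c+ (3.78 ± 0.53, adjusted p = 3.35e-05), and MHCII+CD11c+ was 5.67-fold below MHCII+CD11c- (-2.503 ± 0.51, adjusted p = 0.00394). The second call was lost without MHCII+CD11c+ IC replicate 2 (adjusted p = 0.106), and the other differences called for Ltc4s held in every alternative.

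Alox5ap (chr5:149264767-149288153, plus strand) was at 149, 174 and 159 CPM in LYVE1+CX3CR1+ controls, 124, 159.9 and 126 CPM in MHCII+CD11c- controls and 159.5, 154 and 166 CPM in MHCII+CD11c+ controls. The groups overlapped, and LYVE1+CX3CR1+ differed from MHCII+CD11c+ controls by 0.01 ± 0.17 on the log2 scale (adjusted p = 0.985), against 2.11 for Alox5. After IC it was at 227, 219 and 205 CPM in LYVE1+CX3CR1+, 185, 134 and 181 CPM in MHCII+CD11c- and 169 and 146 CPM in MHCII+CD11c+ macrophages. The LYVE1+CX3CR1+ IC libraries were above their controls without overlap, but the difference of 0.44 ± 0.17 did not pass the test (adjusted p = 0.236).

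The receptor gene Ptger4 (chr15:5206661-5244187, minus strand), which encodes the EP4 receptor for prostaglandin E2, was called in no comparison. It was at 56.4, 47.6 and 65.0 CPM in LYVE1+CX3CR1+ controls and at 59.98, 41.9 and 69.7 CPM after IC. MHCII+CD11c- libraries had 83.8, 62.6 and 106 CPM in controls and 95.1, 100.1 and 81.2 CPM after IC, and MHCII+CD11c+ libraries 85.7, 53.9 and 119 CPM in controls and 102 and 106 CPM after IC. The LYVE1+CX3CR1+ groups were the lowest of the 6 by mean. After IC they lay below MHCII+CD11c+ macrophages without overlap, but the log2 difference of -0.87 ± 0.29 did not pass the test (adjusted p = 0.0512), although it did in 4 of 13 alternatives. Without MHCII+CD11c+ control replicate 2, at 53.9 CPM, the control difference moved from -0.60 ± 0.26 (adjusted p = 0.133) to -0.85 (adjusted p = 0.0222).

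**Figure D4:**
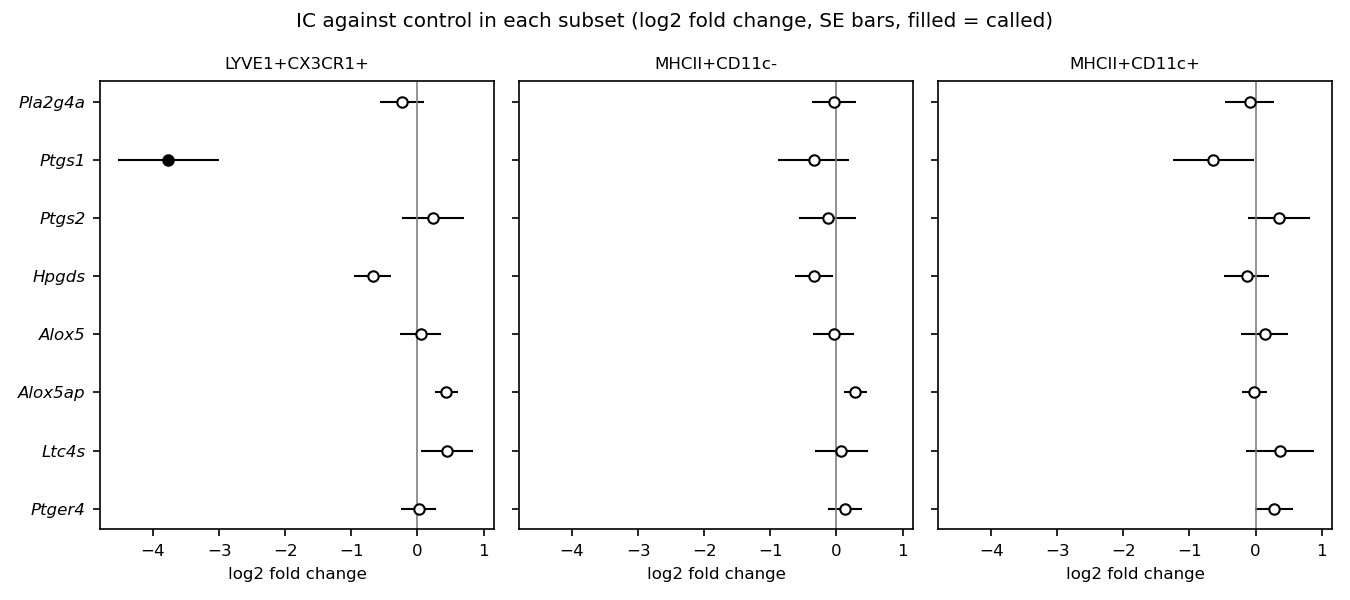
Log2 fold difference ± SE of IC over control in each subset for 8 of the genes (Ptges left out for its low counts), with filled symbols where the test was passed. Ptgs1 in LYVE1+CX3CR1+ macrophages, at -3.77, is the single filled symbol.

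Counted over all 9 genes, 1 was called after IC in LYVE1+CX3CR1+ macrophages, lower, where 0.963% of all genes were called. The median log2 difference there was 0.05 over the 9 genes and -0.14 over all genes tested. In MHCII+CD11c- macrophages 0 of the 9 were called by edgeR, where 0.701% of all genes were, and in MHCII+CD11c+ macrophages 0 of the 9, where 0.216% were. An unadjusted p under 0.05 was reached by 3, 0 and 0 of the 9 in the 3 subsets, and by 2159, 1526 and 795 of all 15272 genes. Neither DESeq2 nor voom called any of the 9 in the MHCII+ subsets. Between controls, LYVE1+CX3CR1+ against MHCII+CD11c- gave 2 calls (1 higher, 1 lower), where 1.56% of all genes were called. LYVE1+CX3CR1+ against MHCII+CD11c+ controls gave 4 (3 higher, 1 lower), where 15.2% of all genes were called. Without MHCII+CD11c+ control replicate 2 it gave 6, where 2481 of 15116 genes were called. MHCII+CD11c+ against MHCII+CD11c- controls gave 3, all lower, where 8.66% of all genes were called. After IC the counts were 3 (1 higher, 2 lower), 5 (3 higher, 2 lower) and 2 (both lower), where 5.54%, 11.9% and 4.03% of all genes were called. The IC and subset comparisons share the control libraries. The difference in IC response between subsets was called for 0 of the 9 genes in each of 3 tests, in which 0.0262%, 0.0327% and 0% of all genes were called and 1152, 1225 and 496 of them had an unadjusted p under 0.05. Ptgs1 alone among the 9 had an unadjusted p under 0.05 there, in the first 2 tests, and it was called in both with surrogate variables (adjusted p = 0.0413 and 0.0456).

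Around these 9 genes, 63 further genes of eicosanoid metabolism were listed, of which 55 were in the table and 40 were tested. LYVE1+CX3CR1+ against MHCII+CD11c+ controls gave the most calls, as over all genes, of which 15.2% were called there, with 13 of 40 (5 higher, 8 lower, median log2 difference -0.34, against 0.05 over all genes). It was followed by MHCII+CD11c+ against MHCII+CD11c- controls with 10 (4 higher, 6 lower, median 0.06, against -0.03), where 8.66% of all genes were called. LYVE1+CX3CR1+ against MHCII+CD11c- controls gave 2, both lower (median -0.31), where 1.56% of all genes were called. After IC the counts were 6 lower for LYVE1+CX3CR1+ against MHCII+CD11c-, 9 against MHCII+CD11c+ (2 higher, 7 lower) and 4 for MHCII+CD11c+ against MHCII+CD11c- (3 higher, 1 lower), where 5.54%, 11.9% and 4.03% of all genes were called. IC gave 2 calls in LYVE1+CX3CR1+ macrophages, both lower, where 0.963% of all genes were called, and 0 in either MHCII+ subset by edgeR. In MHCII+CD11c- and MHCII+CD11c+ macrophages 0.701% and 0.216% of all genes were called. An unadjusted p under 0.05 was reached there by 3 and 2 of the 40, and by 1526 and 795 of all 15272 genes. In the LYVE1+CX3CR1+ IC group 10 of the 40 genes were at 0 in every library, and the median of IC against control there, -0.27, became 0 with these genes at the fold the floor allows.

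Of the receptors on that list, 6 were tested. Of these, 4 were called lower in LYVE1+CX3CR1+ relative to MHCII+CD11c+ controls, where 15.2% of all genes were called. Ltb4r1, the high-affinity receptor of leukotriene B4, was at 0.472, 0 and 0.698 CPM in LYVE1+CX3CR1+ controls, 11.3, 4.06 and 8.02 CPM in MHCII+CD11c- controls and 63.6, 29.7 and 55.2 CPM in MHCII+CD11c+ controls. The groups did not overlap. Ltb4r1 was higher in MHCII+CD11c+ relative to MHCII+CD11c- controls by 2.67 ± 0.52 on the log2 scale (adjusted p = 0.00177) and lower in LYVE1+CX3CR1+ relative to MHCII+CD11c- controls (log2 difference -4.04 ± 0.66, adjusted p = 0.00156), the latter resting on a group with few counts. After IC it was at 0 in all 3 LYVE1+CX3CR1+ libraries, at 1.33, 2.88 and 3.58 CPM in MHCII+CD11c- and at 42.8 and 54.4 CPM in MHCII+CD11c+ macrophages, where it was at least 47.5-fold higher than in LYVE1+CX3CR1+ macrophages, taken at the floor. The order of the subsets for Ltb4r1 was the reverse of that for Alox5 and Ltc4s.

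Ptgir, the prostacyclin receptor, was at 3.15, 2.16 and 2.51 CPM in LYVE1+CX3CR1+ controls and at 72.1, 42.2 and 40.1 CPM in MHCII+CD11c+ controls (log2 difference -4.28 ± 0.65, adjusted p = 8.22e-05). Ptger2, the EP2 receptor for prostaglandin E2, was at 0.945, 0 and 1.26 CPM against 13.4, 11.5 and 22.7 CPM (-4.26 ± 0.91, adjusted p = 0.00164). Cysltr1, a receptor of cysteinyl leukotrienes, was at 24.3, 18.1 and 22.7 CPM against 72.7, 57.2 and 61.6 CPM (-1.55 ± 0.37, adjusted p = 0.00455). All 4 receptor calls held in every alternative.

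Of the steps beside the 9 genes, Hpgd, the 15-hydroxyprostaglandin dehydrogenase that inactivates prostaglandin E2, was at 371, 291 and 329 CPM in LYVE1+CX3CR1+ controls, 158, 129 and 163 CPM in MHCII+CD11c- controls and 53.0, 20.4 and 38.2 CPM in MHCII+CD11c+ controls. The groups did not overlap, with a log2 difference of 3.15 ± 0.44 for LYVE1+CX3CR1+ over MHCII+CD11c+ (adjusted p = 0.000135) and -2.01 ± 0.42 for MHCII+CD11c+ over MHCII+CD11c- (adjusted p = 0.00718). Lta4h, which makes leukotriene B4 from leukotriene A4, was highest in MHCII+CD11c+ controls, at 183, 88.4 and 132 CPM, against 45.0, 59.2 and 65.3 CPM in LYVE1+CX3CR1+ and 78.1, 57.4 and 42.8 CPM in MHCII+CD11c- controls. LYVE1+CX3CR1+ was lower than MHCII+CD11c+ (log2 difference -1.25 ± 0.30, adjusted p = 0.00474).

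Tbxas1, the thromboxane synthase gene, was at 244, 221 and 251 CPM in LYVE1+CX3CR1+ controls and fell to 125, 157 and 114 CPM after IC without overlap (-0.85 ± 0.19, adjusted p = 0.0291), a call that held in 6 of 14 alternatives, with adjusted p up to 0.151. Pla2g2d, a secreted phospholipase A2 of lymphoid and myeloid cells, was at 4.41, 1.08 and 10.05 CPM in the same controls and at 0 in all 3 IC libraries (adjusted p = 0.0160), at least 5.07-fold lower against the floor, a call that held in 9 of 13 alternatives, with adjusted p up to 0.212. Both genes moved in the same direction as Ptgs1, which was also that of 124 of the 147 genes called in this comparison by edgeR. The 6 platelet markers in the table, of which Tbxas1 was not one, summed to 5.72 to 12.4 CPM in these controls and to 2.07 to 7.61 CPM after IC.

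The remaining genes called were named by the same rule. Among the controls, the lysosomal phospholipase gene Pla2g15 (mean 138 against 40.6 CPM), Prxl2b (26.5 against 4.49 CPM), the gamma-glutamyl transferase gene Ggt5, whose enzyme converts leukotriene C4 to D4 (18.0 against 1.96 CPM), and Abcc1, which exports leukotriene C4 (295 against 174 CPM), were higher in LYVE1+CX3CR1+ relative to MHCII+CD11c+ macrophages. The diacylglycerol lipase gene Daglb (105 against 205 CPM), the aldo-keto reductase gene Akr1c18 (0.0525 against 15.5 CPM) and the cytochrome P450 gene Cyp4f16 (8.01 against 26.2 CPM) were lower there. Akr1c18 had 1, 0 and 0 counts in the LYVE1+CX3CR1+ controls, below the floor, so these means give no fold. Ptges3, a cytosolic prostaglandin E synthase also known as the co-chaperone p23 (149 against 90.7 CPM), and Cotl1, which binds 5-lipoxygenase (785 against 455 CPM), were higher in MHCII+CD11c+ relative to MHCII+CD11c- controls. After IC, the epoxide hydrolase gene Ephx1 was higher (161 against 86.3 CPM), whereas Cyp4f18 (6.68 against 30.4 CPM) and Pla2g7, the hydrolase of platelet-activating factor (46.9 against 253 CPM), were lower in LYVE1+CX3CR1+ relative to MHCII+CD11c+ macrophages. The calls given here of Pla2g15, Prxl2b, Abcc1, Daglb, Akr1c18 and Pla2g7 held in every alternative. That of Ggt5 held in 13 of 14, Cotl1 in 12 of 14, Cyp4f16 in 11 of 14 and Ptges3 in 8 of 14. Ephx1 held in 12 of 13 and Cyp4f18 in 6 of 13.

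**Figure D5:**
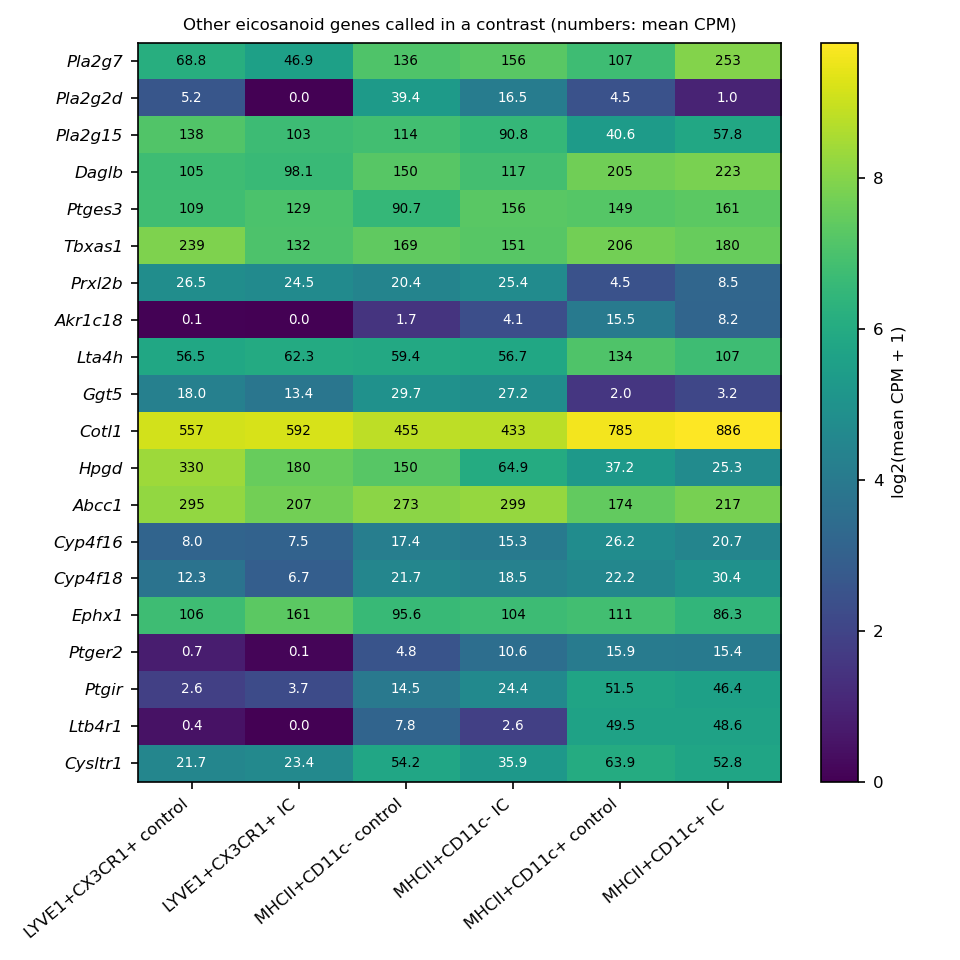
Mean CPM of the 20 other eicosanoid genes called in at least 1 comparison, in the 6 groups, with the number printed in each cell and the colour giving log2(mean CPM + 1). Receptors such as Ltb4r1 and Ptgir are faint in the LYVE1+CX3CR1+ columns, and Hpgd is highest there.

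Likeness of pattern was described by the Pearson correlation of log2 CPM over the 17 libraries, which share their subsets and so give high values readily. The nearest genes outside the list were Timp2 (r = 0.982) and Pmp22 (0.982) for Alox5, Fez2 (0.959) and Cbr2 (0.958) for Ltc4s, Sema6a (0.970) and Cd33 (0.962) for Hpgds, and Il1b (0.957) and Tnip3 (0.946) for Ptgs2. For Ptgs1 they were Midn (0.926) and Dnah2 (0.920), for Ptger4 Myd88 (0.903) and Gm12928 (0.880), for Pla2g4a Stau2 (0.895) and Rora (0.862), for Alox5ap Prkar1a (0.848) and Ccdc174 (0.845), and for Ptges, at its few counts, Gm19951 (0.883) and Ndufs8 (0.792). Within the list, Alox5 and Ltc4s had r = 0.957, Alox5 and Hpgds 0.876, and Ptgs2 and Hpgds -0.919. Genes on the opposite strand overlap exons of Ptgs1 (Gm43621), Ptger4 (Ttc33 and Gm15937), Alox5ap (Gm19719) and Ltc4s (Gm26542), and whether strand was used in counting was not given in the sources used here, so their reads may be mixed.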

How the data were processed

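The deposited table held counts per gene for 17 libraries, identical to the 17 single-library files; 1 further column matched no sample and was not used. Per the labels and the study's methods, the authors used a stranded pico-input kit on 5 ng of total RNA per library, sequenced paired reads of 150 bases, trimmed them with Trim Galore, aligned them to mm10 with HISAT2 and counted them with featureCounts. Versions, annotation, strand setting and the treatment of multimapped reads were not given in the sources used here. Totals of 2301913 to 7248939 counts set the precision.

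From these counts, edgeR 4.0.16 (R 4.3.3) was run with TMM scaling, filterByExpr at a minimum count of 10 and the robust quasi-likelihood test on all 6 groups (11 residual degrees of freedom). The 12 contrasts were each adjusted by Benjamini-Hochberg over 15272 genes, and genes were called at an adjusted p under 0.05. The tests are two-sided. Replicates differed beyond sampling noise (chi-square per degree of freedom of at least 6.77). Alternatives were DESeq2 1.42.0, limma 3.58.1 voom with quality weights, RLE library sizes, no filter, a fit on the groups compared alone, equal depth, surrogate variables (sva 3.50.0), a replicate block and leaving out each library. The script was tested on simulated data. CPM per kilobase used the union of exons of GENCODE M21 (GRCm38), from which positions also come. Promoters are from RefSeq (GRCm38.p6), shown for the 2 genes compared whose RefSeq start equals that of GENCODE, and their motifs were chosen after the sequences were seen.

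The 9 genes and all lists were chosen with earlier results of these data known. Other pathway genes were named where called in at least 1 contrast, and for each of the 9 genes the 2 genes with the highest correlation of log2 CPM (prior count 2) were named. Marker lists were used as levels only. No protein sequences were used here.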

Additional observations from a re-analysis of the deposited data

How the results depend on the processing

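The number of the 9 genes called moved by over 1.5 times in these cases. After IC in LYVE1+CX3CR1+ macrophages it was 1, and 0 with voom and in a fit on the groups compared alone, with a range of 0 to 1 over the left-out libraries. For LYVE1+CX3CR1+ against MHCII+CD11c- controls it was 2, with 5 by voom, 1 with no filter on low counts and 1 to 2 without single libraries. For the same subsets after IC it was 3, with 5 by DESeq2 and 5 with surrogate variables, and 2 to 3 without single libraries. For MHCII+CD11c+ against MHCII+CD11c- after IC it was 2, with 4 by DESeq2, voom, equal depth, surrogate variables and the replicate block, and 0 to 2 without single libraries, 0 being without MHCII+CD11c+ IC replicate 2. The IC responses of LYVE1+CX3CR1+ against either MHCII+ subset gave 0 calls and 1 with surrogate variables. In LYVE1+CX3CR1+ against MHCII+CD11c+ macrophages the counts ranged over 4 to 6 in both conditions without single libraries, and in MHCII+CD11c+ against MHCII+CD11c- controls over 3 to 4. The cause of these shifts was not tested. No called direction of any of the 9 genes was reversed, nor was any of the 46 calls of the other pathway genes, of which 23 held in every alternative (the same alternatives, extended to these genes after the data were seen).

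Over all genes, calls after IC in LYVE1+CX3CR1+ macrophages were 147, against 36 by voom, 63 in a fit on the groups compared alone, 433 by DESeq2 and 1558 with surrogate variables. In MHCII+CD11c- macrophages they were 107, with 71 to 286 over the same tools, and in MHCII+CD11c+ macrophages 33, with 0 to 98. LYVE1+CX3CR1+ against MHCII+CD11c- ranged over 238 to 1048 calls in controls and 326 to 2712 after IC, against MHCII+CD11c+ over 2206 to 3817 and 1153 to 4045, and MHCII+CD11c+ against MHCII+CD11c- over 888 to 1948 and 612 to 1756. The differences in response gave 0 to 172, 0 to 2 and 5 to 155 calls, for LYVE1+CX3CR1+ minus MHCII+CD11c-, MHCII+CD11c+ minus MHCII+CD11c- and LYVE1+CX3CR1+ minus MHCII+CD11c+. These ranges leave out the fits without single libraries, in which the calls after IC ranged over 43 to 170, 29 to 173 and 0 to 104 in the LYVE1+CX3CR1+, MHCII+CD11c- and MHCII+CD11c+ subsets, the lowest being without LYVE1+CX3CR1+ control replicate 3, MHCII+CD11c- IC replicate 3 and MHCII+CD11c+ IC replicate 1. LYVE1+CX3CR1+ against MHCII+CD11c- then gave 96 (without LYVE1+CX3CR1+ control replicate 3) to 411 calls in controls and 437 (without MHCII+CD11c- IC replicate 3) to 1118 after IC. Against MHCII+CD11c+ it gave 1591 to 2481 in controls and 666 (without MHCII+CD11c+ IC replicate 2) to 1730 after IC. MHCII+CD11c+ against MHCII+CD11c- gave 785 (without MHCII+CD11c- control replicate 3) to 1450 in controls and 145 (without MHCII+CD11c+ IC replicate 2) to 610 after IC. The differences in response gave 1 to 7, 0 to 21 and 3 to 56 calls in the order above, 21 and 56 being without MHCII+CD11c+ control replicate 2. With RLE library sizes the median of all genes moved from -0.12 to -0.02 for LYVE1+CX3CR1+ against MHCII+CD11c+ after IC, from -0.16 to -0.03 and from -0.21 to -0.04 for the responses of LYVE1+CX3CR1+ minus each MHCII+ subset.

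The data alone leave pairing by number open. Deviations within a number correlated positively between all subsets, but not always between IC and control. No contrast had all 3 over 0.1, the nearest being MHCII+CD11c+ against MHCII+CD11c- controls (0.0986, 0.286 and 0.0796). There 6 of 6 libraries correlated best with their own number, elsewhere 2 to 5. New calls with the block included Ptgs2 in MHCII+CD11c+ against MHCII+CD11c- controls (1.25, adjusted p = 0.00338) and after IC (1.62, 0.00386). Others were Alox5 there after IC (-1.30, 0.0206) and Ptger4 in LYVE1+CX3CR1+ against MHCII+CD11c+ after IC (-0.91, 0.0236). Beside the count of 4 above, the block moved no count of the 9 genes by over 1.5 times.

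Low counts limit Ptges and the lower group of Ptgs1. MHCII+CD11c+ macrophages after IC had 2 libraries, so without either the remaining one was assumed to vary like the other groups.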
